A study of Saccharomyces cerevisiae with 7 samples.

Results

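The genes described here are those whose nascent RNA differed at 39 °C between yeast cells with and without rapamycin, in a strain built so that rapamycin removes the heat shock transcription factor Hsf1 from the nucleus. They were taken from a table of 5732 Saccharomyces cerevisiae genes by keeping the 4585 whose mean over all conditions was at or above its 20th percentile, 14.442 normalized reads, which left out 1147. The labels give 1 sample per condition, and the authors deposited 1 mean normalized read count per gene and condition, so there is no replicate spread, no n and no test for any difference. The table covers 4 conditions of strain DPY1283, which the labels give as Hsf1-AA (an anchor-away tag on Hsf1) with Rpb3-FLAG, a tagged subunit of RNA polymerase II. Both compared groups were at 39 °C, and they differ in 1 µM rapamycin. The 30 °C cells, also without and with 1 µM rapamycin, come from the same strain. A strain lacking the anchor-away tag was not among the samples used, so that loss of nuclear Hsf1 and other effects of the drug cannot be told apart. The labels do not state how long heat and drug were applied.

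Hsf1 is a trimeric transcription factor that binds repeated short elements in promoters and drives genes for chaperones such as Hsp70, Hsp90 and their partners. When proteins misfold in heat, chaperones are drawn away from Hsf1 and its targets are transcribed strongly. In the anchor-away method rapamycin joins the tagged protein to an anchor that leaves the nucleus. Heat also lowers transcription of the genes for making ribosomes and raises a general stress programme under Msn2 and Msn4, a pair of factors distinct from Hsf1. Nascent RNA is the RNA held by elongating polymerase, a reading of transcription rather than of RNA stock.

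The ratio used throughout is log2 of the value at 39 °C with rapamycin over the value at 39 °C without it, after adding 2.851 (0.1 of the median value) to each. This scale understates the difference of genes with low values. A gene was counted as lower or higher at a ratio of at most -1 or at least 1, a 2-fold difference. By that rule 132 of 4585 kept genes were lower, 2.88%, and 246 were higher, 5.37%. The median ratio of all kept genes was 0.02. With the columns rescaled to equal totals that median moved to 0.14 and the counts to 103 lower and 331 higher, which takes the share of higher genes among those called from 65.1% to 76.3%.

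Of the 132 lower genes, 27 were classic chaperone genes, out of 44 kept on that list, and 105 were not. Those 105 were 2.31% of the 4541 kept genes outside the list. Of the 246 higher genes, 70 were ribosomal protein genes and 55 ribosome biogenesis genes. The other 121 were 2.83% of the 4280 kept genes outside both lists. The text below is about the 105 and the 121, and since the ratio itself chose them, their ratios are a description. The plot of both 39 °C columns shows that the lower genes reach much farther from the diagonal than the higher ones.

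**Figure D1:**
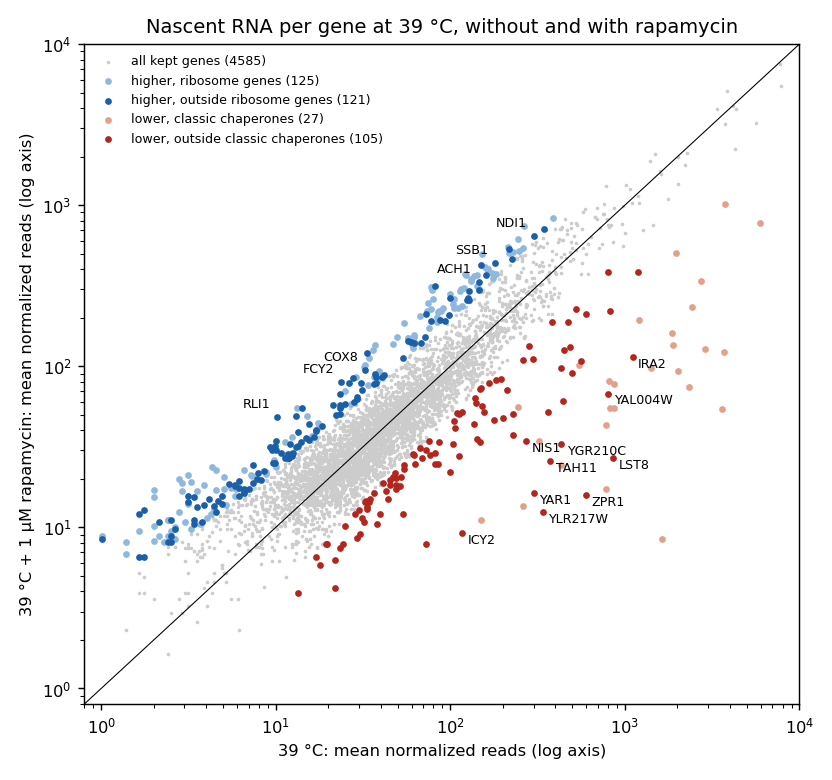
Mean normalized reads per gene at 39 °C (x) against 39 °C with 1 µM rapamycin (y), both on log axes; each point is 1 gene, coloured by group, and the line marks equal values. Lower genes outside the chaperones extend to ZPR1 at 596 against 15.9 normalized reads, while no higher gene outside the ribosome genes reaches 4-fold on the log2 scale.

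The lower genes outside the chaperone list had median values of 32.2 normalized reads at 30 °C, 30.0 at 30 °C with rapamycin, 86.5 at 39 °C and 27.8 at 39 °C with rapamycin. Their median ratio was -1.31, against -3.77 for the 27 lower chaperone genes. A small group carried the large differences: 34 of the 105 were at least 3-fold lower, 20 at least 4-fold, 9 at least 8-fold and 3 at least 16-fold. The 3 were ZPR1, LST8 and the locus YLR217W. The counting standard error of the ratio, which covers counting error only, ran from 0.072 to 0.45 over the 105 genes with a median of 0.25. At 39 °C with rapamycin 39 of the 105 had fewer than 20 normalized reads, beside 998 of the 4541 kept genes outside the list. Raising the pseudocount to 0.5 of the median left 55 genes, all of them among the 105. Just inside the limit lay BUD7 and NOT5 at -1.007 and -1.002, and just outside it PER33 and RGT1, both at -0.996.

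ZPR1 (YGR211W, chromosome VII, 915241 to 916701), which encodes an essential zinc finger protein that helps to fold the translation elongation factor eEF1A, had the lowest ratio outside the chaperones. It had 71.2 normalized reads at 30 °C, 51.2 at 30 °C with rapamycin, 596 at 39 °C and 15.9 at 39 °C with rapamycin. The 39 °C value stood far above the other conditions, and with rapamycin the gene was lower than at 30 °C. The ratio was -4.99 (counting standard error 0.28). The gene next to it on the other strand, YGR210C (VII, 913503 to 914738), went with it. Its values in the same order were 83.0, 82.6, 432 and 33.1, a ratio of -3.60 (counting standard error 0.21). The 2 genes face away from each other across 502 bases, and neither lies next to a classic chaperone gene. Positions are those of RefSeq assembly R64 and span the annotated gene.

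Several of the lowest genes lay beside a chaperone gene. LST8 (XIV, 620067 to 620978), which encodes a subunit common to the TOR kinase complexes, starts 501 bases from the start of SIS1, an essential Hsp40 gene read from the other strand. Its values were 46.8 at 30 °C, 17.9 at 30 °C with rapamycin, 856 at 39 °C and 26.8 at 39 °C with rapamycin, and its ratio was -4.85 (counting standard error 0.23). LST8 was thus lower with rapamycin at both temperatures. YAR1 (XVI, 99484 to 100086), the chaperone of ribosomal protein Rps3 during export, is divergent from the Hsp90 gene HSP82 with 858 bases between them. It had 37.7, 29.2, 301 and 16.3 normalized reads in that order and a ratio of -3.99 (counting standard error 0.28). TAH11 (X, 522048 to 523862), which encodes the replication licensing factor Cdt1, is divergent from the mitochondrial Hsp70 gene SSC1 across 445 bases. Its values were 61.7, 39.1, 374 and 25.8, with a ratio of -3.72. SSC1 itself had a smaller ratio, -1.96.

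The annotation or, for 3 loci without a RefSeq row, the systematic number puts 73 kept genes outside the list directly next to a classic chaperone gene, and 18 of them, 24.7%, were lower. Among the 4468 kept genes not next to one, 87 were lower, 1.95%. So 18 of the 105 lower genes, 17.1%, were neighbours of a chaperone gene. The counts differed by layout. Around all classic chaperone genes 6 of 16 divergent neighbours were lower and 7 of 22 neighbours that lie upstream on the same strand. Of the neighbours downstream on the same strand 1 of 17 was lower, and of the convergent ones 2 of 15. Around the 27 chaperone genes that were themselves lower, 6 of 7 divergent neighbours were lower and 7 of 16 upstream ones. Downstream on the same strand 1 of 12 was lower, and of the convergent neighbours 1 of 7. These neighbours were counted with the ratios of the chaperone genes known and share their chromosomal surroundings, so the counts describe the table and are not a test.

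**Figure D2:**
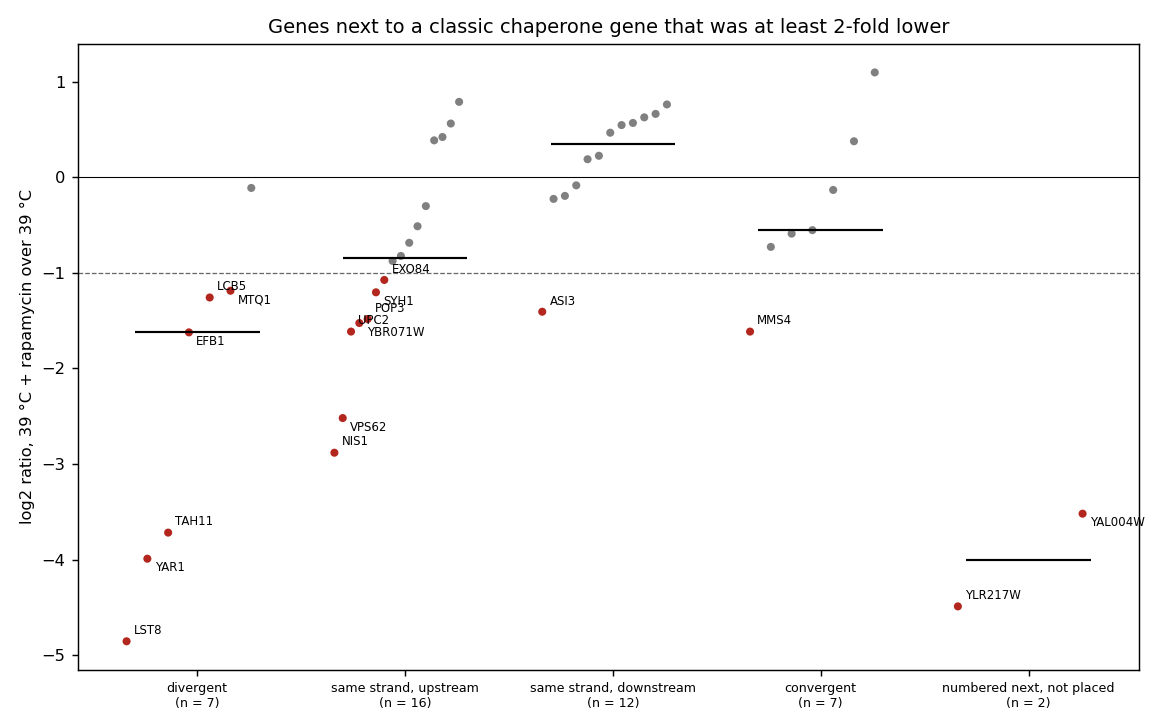
Ratio at 39 °C with rapamycin over 39 °C (log2) for kept genes next to a lower classic chaperone gene, by layout; each point is 1 gene, red and named where at least 2-fold lower, the dashed line marks that limit and the bars are medians. The 7 divergent neighbours have a median of -1.62, the 12 downstream neighbours one of 0.34.

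The other divergent neighbours that were lower were EFB1, LCB5 and MTQ1. EFB1 (I, 142174 to 143160), which encodes the nucleotide exchange subunit of elongation factor eEF1B, faces away from the Hsp70 gene SSA1 at a distance of 742 bases. It was a strongly transcribed gene in every condition, with 558, 444, 1196 and 386 normalized reads in the same order. Its ratio was -1.62, with a counting standard error of 0.072 that was the smallest of the 105. LCB5, a sphingoid base kinase gene beside HSP60, had a ratio of -1.26, and MTQ1, a methyltransferase gene beside YDJ1, had -1.19. The divergent neighbour of KAR2, the tRNA deaminase gene TAD2, was not lower, with a ratio of -0.11.

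Among genes upstream of a chaperone gene on the same strand, NIS1 and VPS62 had the lowest ratios. NIS1 (XIV, 479768 to 480991), which encodes a bud neck protein of mitosis, lies before the Hsp40 gene APJ1, 399 bases away. It had 72.0, 69.1, 272 and 34.4 normalized reads in the order used above and a ratio of -2.88. VPS62 (VII, 770569 to 771972) lies before BTN2, the sorting factor for misfolded proteins that had the lowest ratio of all kept genes. Its values were 17.7, 12.5, 229 and 37.5, and its ratio was -2.52. The other lower genes of this layout were UPC2, the sterol-responsive activator gene, at -1.61 before AHA1, YBR071W at -1.53 before HSP26, and POP3, an RNase P subunit gene, at -1.48 before HCH1. SYH1 at -1.20 before SSE1 and EXO84, an exocyst gene, at -1.07 before FES1 complete the group. UPC2, POP3, SYH1 and EXO84 had 39 °C values within 2-fold of 30 °C, at 81.9 against 52.5, 29.0 against 37.5, 140.3 against 110.1 and 75.4 against 42.1 normalized reads.

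FES1, a nucleotide exchange factor gene for Hsp70, had lower genes on both sides. MMS4, which encodes a subunit of the Mus81 structure-specific nuclease and ends 230 bases from the end of FES1, had 15.0, 11.0, 38.0 and 10.5 normalized reads and a ratio of -1.62. SIS1 likewise had LST8 on 1 side and ASI3, a ubiquitin ligase gene of the inner nuclear membrane at -1.41, on the other. SSA1 had EFB1 and, by its number, the locus YAL004W on the same side, while ERP2 on the other side was not lower, at 0.66.

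YAL004W and YLR217W have no row in the RefSeq table and carry the numbers next to SSA1 (YAL005C) and CPR6, an Hsp90 cochaperone gene (YLR216C). YAL004W had 42.9, 9.52, 805 and 67.6 normalized reads in the usual order and a ratio of -3.52. YLR217W had 23.8, 16.4, 339 and 12.4 and a ratio of -4.49. SSA1 and CPR6 had ratios of -3.77 and -3.84. Whether reads were counted by strand is not stated, and reads of overlapping or antisense loci therefore cannot be told apart from those of their neighbours.

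Adjacent lower genes also occurred away from the chaperones. Over all 132 lower genes there were 20 adjacent pairs, 9 of them divergent, beside 21 pairs, 9 of them divergent, over the 246 higher genes. The matching share over all kept genes is not given here, so the pair counts are a description only. Of the 20 pairs of lower genes 5 held no classic chaperone gene, 3 of them divergent. Besides ZPR1 and YGR210C these were MBF1 with BUD7, SPI1 with PEA2, MGA1 with RIE1, and YMR210W with DML1. Near the limit were SPI1 and PEA2, both at -1.06, and DML1 at -1.10 with 10.1 normalized reads at 39 °C with rapamycin. MBF1 (XV, 877230 to 877685), the bridging coactivator of Gcn4, had 162, 57.0, 821 and 219 normalized reads. Its ratio was -1.89 (counting standard error 0.094), and its divergent neighbour BUD7 stood at the limit with -1.007. MGA1, which encodes a protein related to heat shock factors, and RIE1, an RNA-binding protein gene, are convergent with 1756 bases between them. MGA1 had 11.95, 12.98, 76.5 and 28.1 normalized reads and RIE1 (VII, 991176 to 993521) had 63.3, 79.1, 562 and 108. Their ratios were -1.36 and -2.35.

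A list of genes that are known or reported Hsf1 targets but no chaperones had 13 kept members, of which 9 were lower and 0 higher, with a median ratio of -1.36. Membership was taken from general knowledge and not checked against binding. HSP30 (III, 156109 to 157107), whose product is a plasma membrane protein that restrains the proton pump Pma1, led this list. It was nearly silent at 30 °C with 8.32 normalized reads, or 9.14 with rapamycin, and had 441 at 39 °C and 61.0 at 39 °C with rapamycin. Even with a ratio of -2.80 it therefore stood above its 30 °C value in heat with rapamycin. OPI10 (XV, 265429 to 266169), the yeast relative of Hikeshi, which in human cells imports Hsp70 into the nucleus, had 14.6, 13.3, 148 and 33.9. Its ratio was -2.04. It lies next to SIL1, an exchange factor gene for the Hsp70 of the endoplasmic reticulum, which was not lower. GRE3 (VIII, 323409 to 324392), an aldose reductase gene, had 19.7, 16.3, 485 and 132 normalized reads and a ratio of -1.85. ERO1 (XIII, 11483 to 13174), the oxidase that feeds disulfide formation in the endoplasmic reticulum, had 66.6, 65.8, 601 and 209.7, a ratio of -1.51. It was the only one of 43 kept members past 2-fold in the list of endoplasmic reticulum folding and transport, which had a median of 0.09. Folding genes of that compartment placed on other lists went both ways. KAR2 and HLJ1 were lower, at -1.88 and -2.03, while SIL1 and LHS1 had ratios of 0.77 and 0.10. The remaining lower members of the list of Hsf1 targets were RPN4, MBF1, MGA1, UBC4 and UBI4.

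Genes that mark proteins for destruction were on the lower side. Of 49 kept genes of ubiquitin and protein quality control, 6 were lower and 0 higher, and 37 had a ratio below 0, with a median of -0.39. RPN4 (IV, 415113 to 416708), the activator of proteasome genes, had 41.6, 30.0, 142 and 35.3 normalized reads and a ratio of -1.93. UBC4 (II, 406628 to 407169), a ubiquitin-conjugating enzyme gene of the stress response, had 69.8, 42.5, 259.8 and 109.7, a ratio of -1.22. UBI4 (XII, 64062 to 65207), the polyubiquitin gene, had 93.0, 74.2, 801 and 384, a ratio of -1.06, which becomes -0.93 with equal totals. Its repeats resemble other ubiquitin genes, and how reads that map to several places were counted is not given. ASI3, the Rsp5 adaptor gene BUL1 at -1.10 and the HECT ligase gene HUL4 at -1.02 make up the 6. With equal totals BUL1 and HUL4 also fall short of 2-fold, at -0.98 and -0.91, as they do without the length trend described below, at -0.91 and -0.82. Of the 43 proteasome genes, which Rpn4 activates, 38 had a ratio below 0, with a median of -0.46, while ECM29, a proteasome-associated factor, was the single lower gene at -1.19. IRC25, a proteasome assembly chaperone gene, was higher at 1.24. With rapamycin at 30 °C the proteasome median was -0.22.

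Cochaperones that serve other compartments or new proteins were split. In the list of other chaperones, with 38 kept members and a median of 0.17, 2 were lower and 4 higher. SGT2 (XV, 338938 to 339978), which hands tail-anchored membrane proteins to the insertion pathway of the endoplasmic reticulum, had 172, 107, 497 and 91.1 normalized reads. Its ratio was -2.41, with values in heat with rapamycin below those at 30 °C. HLJ1 (XIII, 577718 to 578392), an Hsp40 of the endoplasmic reticulum membrane, had 30.7, 30.0, 99.3 and 22.2, a ratio of -2.03. The higher members were SSB2, SSB1, RVB1 and PLP2, described below with the genes of translation.

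IRA2 (XV, 171070 to 180309), a GTPase-activating protein gene that switches Ras off, had the highest 39 °C value of the 25 lowest genes. It had 102, 101, 1107 and 114 normalized reads in the usual order. In heat with rapamycin it thus stood near its 30 °C level, at a ratio of -3.24 (counting standard error 0.12). Its paralog IRA1 had 55.5, 68.5, 116 and 51.7, a ratio of -1.13. IRA1 spans 9279 bases, and kept genes from 4000 bases had a median ratio of -0.35. It was not followed singly without the length trend described below. KSP1 (VIII, 268459 to 271548), a kinase gene of nutrient signalling, had 69.4, 51.8, 432 and 97.7, a ratio of -2.11. In the list of 43 TOR pathway genes LST8 was the only lower member and none was higher. The list median was -0.16, and TOR1, the rapamycin-sensitive kinase gene, had 129 at 39 °C and 70.8 with rapamycin, a ratio of -0.84. At 7413 bases TOR1 is in the same length class as IRA1.

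Autophagy genes, 15 kept, had 1 lower and 0 higher member, a median of -0.47 and 14 members below 0. ATG1, the kinase gene that starts autophagy, had 16.9, 16.1, 49.0 and 17.3 normalized reads, a ratio of -1.37. The locus listed as ICY2 (YPL250C, XVI, 74309 to 74719), which RefSeq names ATG41 and which was not on the list, had 9.40, 4.08, 117 and 9.17. With a ratio of -3.32 it was back at its 30 °C value in heat with rapamycin, and its counting standard error was 0.34. Of 20 drug resistance genes 2 were lower and 0 higher, with a median of -0.40. They were the ABC transporter genes SNQ2, at 525 against 226 normalized reads and a ratio of -1.21, and PDR11 at -1.25.

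Genes of the general stress programme mostly stayed within 2-fold, as did kept genes in general. Of 54 kept Msn2/4 genes 4 were lower and 1 higher, beside 2.88% lower and 5.37% higher of all kept genes. Their median ratio was 0.04, although their median value was 17.0 normalized reads at 30 °C against 289 at 39 °C. With rapamycin in heat that median was 238. TMA10 (XII, 783127 to 783387), a ribosome-associated protein gene, was the lowest of them. Its 30 °C value was 0.750, the lowest value of that column, or 1.73 with the drug. Its 39 °C value was 365, or 52.2 with the drug, a ratio of -2.74. Like HSP30 it remained well above its 30 °C level. The other lower members were GRE3, YNL194C at -1.31 and the cell wall gene SPI1 at -1.06, the last of which becomes -0.94 with equal totals. TDH1, a glyceraldehyde phosphate dehydrogenase gene, was the only one of 26 genes of glycolysis and glucose past 2-fold. It had 22.7, 21.9, 472 and 188 normalized reads, a ratio of -1.31, and its reads may be shared with its near-identical paralogs.

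The rest of the 25 lowest genes belong to varied processes. PIN3 (XVI, 834565 to 835212), an actin-associated protein gene also known for inducing a prion, had 19.6, 26.5, 229 and 50.4 normalized reads, a ratio of -2.12. APA1 (III, 37836 to 38801), which degrades diadenosine tetraphosphate, had 63.8, 37.8, 200.1 and 48.0, a ratio of -1.996. BSC5 (XIV, 761123 to 762592) had 3.19, 4.95, 72.7 and 7.85, a ratio of -2.82 (counting standard error 0.36). These 3 were higher in heat and partly or wholly lost that difference with rapamycin. YMR210W, named MGL2 in RefSeq and encoding a monoacylglycerol lipase, had 113 at 39 °C against 27.8 with rapamycin, a ratio of -1.91. The splicing factor gene PRP46 had 30.0, 24.7, 53.5 and 12.1 normalized reads and a ratio of -1.92. Its 39 °C value was within 2-fold of that at 30 °C.

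**Figure D3:**
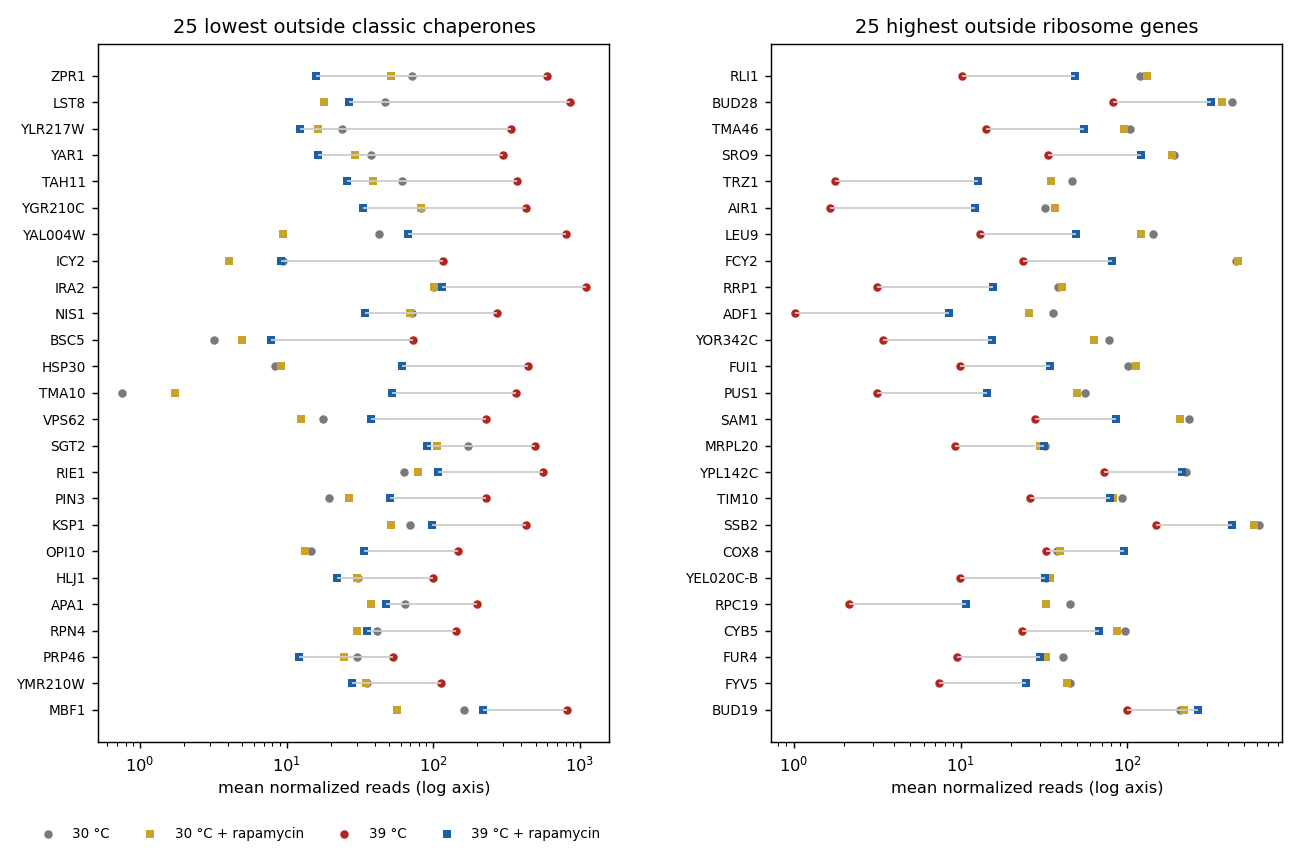
Mean normalized reads (log axis) in the 4 conditions for the 25 lowest genes outside the chaperones (left) and the 25 highest outside the ribosome genes (right); grey lines join 39 °C and 39 °C with rapamycin. On the left the 39 °C value is the highest of the 4 for every gene, and on the right it is the lowest. The genes were ranked by a ratio that contains the 39 °C value, so this is partly built in.

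Among genes below the 25 lowest, some were chosen here after their values were seen. ADR1, an activator of genes repressed by glucose, had 11.7, 6.06, 136 and 44.1 normalized reads, a ratio of -1.57. UPC2, HMS1 at -1.14 and ACA1 at -1.18 encode other regulators of transcription. The Ccr4-Not genes NOT3 and NOT5, whose complex shortens messenger RNA tails, had ratios of -1.37 and -1.002, the latter at the limit. Of the 105 lower genes 63 had 39 °C values at least 2-fold above 30 °C, and 42 had values within 2-fold. Of the 4541 kept genes outside the chaperone list 710 were at least 2-fold above 30 °C, 3014 within 2-fold and 817 at least 2-fold below. The 39 °C value also entered the ratio that chose the 105, so their excess above 30 °C is partly built in. Among the 42 were SRS2, a DNA helicase gene, at -1.51, and the kinesin gene KIP1 at -1.34. The condensin gene YCS4 at -1.26 and the myosin gene MYO1 at -1.25 were others. YCS4 had 25.3, 33.1, 13.4 and 3.92 normalized reads, and its counting standard error of 0.45 was the largest of the 105. MYO1 had 56.1, 86.8, 31.1 and 11.5 normalized reads and spans 5787 bases, a length at which ratios ran lower, as described below. The retrotransposon locus YNL054W-B, at -1.19, belongs to a family of near-identical copies.

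Rapamycin at 30 °C gives a second ratio of the same genes, from columns that entered the choice of members only through the filter on the mean. Of all 4585 kept genes 17 were at least 2-fold lower there, 0.371%. Of those 17, 14 were lower classic chaperone genes, and the other 3 were YAL004W, MBF1 and LST8, all among the 105. Their ratios at 30 °C were -1.89, -1.46 and -1.26. Over the 105 genes 71, or 67.6%, had a ratio below 0 at 30 °C, beside 49.6% of all kept genes. Of the genes that were higher in heat with rapamycin, 64.5% of the 121 outside the ribosome genes and 76.0% of the higher ribosome genes were also below 0 at 30 °C. The median over the 105 was -0.11, beside 0.002 for all kept genes, and no gene of the 105 was 2-fold higher. For IRA2, YGR210C and NIS1, far down the list in heat, the 30 °C ratios were -0.006, -0.008 and -0.058. ZPR1 and YAR1 had -0.45 and -0.34.

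The higher genes outside the ribosome lists differed less. Their median values were 49.1 normalized reads at 30 °C, 46.2 at 30 °C with rapamycin, 13.4 at 39 °C and 34.9 at 39 °C with rapamycin. The median ratio was 1.15, 9 of the 121 were at least 3-fold higher and none 4-fold. At 39 °C 71 of them had fewer than 20 normalized reads, so many of these ratios rest on few reads. Raising the pseudocount to 0.5 of the median left 29 past 2-fold, and lowering it to 0.01 gave 184. The counting standard error ran from 0.073 to 0.46, with a median of 0.31. At the limit stood YNR040W at 1.006 and YNR014W at 1.002 inside, and PHO4 and UBP10 at 0.998 outside. At 30 °C none of the 121 was 2-fold higher or lower with rapamycin, and the median ratio there was -0.081.

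Of 42 translation factor genes 6 were higher and 1, EFB1, lower, with a median of 0.56. RLI1 (IV, 626708 to 628534), the ATP-binding protein that splits ribosomes after termination, had the highest ratio. It had 119.7 normalized reads at 30 °C, 132 at 30 °C with rapamycin, 10.2 at 39 °C and 48.4 at 39 °C with rapamycin. The gene was strongly lower in heat and regained part of its level with rapamycin, at a ratio of 1.97 (counting standard error 0.31). NIP1 (XIII, 892988 to 895426), a subunit gene of initiation factor eIF3, had 472, 418, 57.5 and 143, a ratio of 1.27. The release factor gene SUP45, the initiation factor genes GCN3 and SUI1, and NEW1 had ratios of 1.03, 1.10, 1.04 and 1.03. All 4 fall below 1 when the pseudocount is 0.5 of the median.

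Ribosome-associated genes not on those lists included TMA46 and SRO9, an RNA-binding La-motif protein gene. TMA46 (XV, 493433 to 494470) had 104, 94.8, 14.1 and 55.0 normalized reads and a ratio of 1.77, and SRO9 (III, 57374 to 58678) had 189, 184, 33.4 and 121, a ratio of 1.77. SSB1 and SSB2 encode the Hsp70 that sits on ribosomes and folds new chains. SSB2 (XIV, 252059 to 253900) had 617, 578, 149 and 422, a ratio of 1.48, and SSB1 (IV, 44065 to 45906) had 864, 809, 180.2 and 435, a ratio of 1.26. These Hsp70 genes differed in the opposite direction from SSA1 and SSC1, and their split from each other is uncertain because they are near-identical. RVB1, an ATPase gene of chromatin and ribonucleoprotein assembly, had a ratio of 1.21, and PLP2, which works with the TRiC chaperonin, 1.18. RRP1 and SDO1, both of 60S ribosome assembly and not on the biogenesis list, had ratios of 1.63 and 1.36. The ratio of RRP1 rests on a low value, 3.15 normalized reads at 39 °C.

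RNA polymerases I and III, which make ribosomal and transfer RNA, had 5 of 31 kept genes higher and 0 lower, with a median of 0.58. RPC19, a subunit gene common to both enzymes, had 45.3, 32.5, 2.14 and 10.8 normalized reads, a ratio of 1.45 on low values. RPO31 (XV, 539763 to 544145), the largest subunit gene of polymerase III, had 295, 250.4, 29.2 and 62.8, a ratio of 1.03. RPC53 had 1.35, and RPB8 and RPO26, whose products all 3 nuclear polymerases contain, had 1.12 and 1.08. All 5 fall below 1 when the pseudocount is 0.5 of the median, to between 0.61 and 0.83, and RPB8 and RPO26 also without the length trend described below, to 0.71 and 0.80. In the list of transfer RNA synthetases and modification, 58 kept, 7 were higher and 1, POP3, lower, with a median of 0.34. The 7 were the pseudouridine synthase genes PUS1 and PUS7, the methyltransferase genes TRM1, TRM8 and TRM10, DUS3 and the RNase P subunit gene RPP1, with ratios from 1.04 to 1.53. None of these 8 genes passes 2-fold at the larger pseudocount, where the 7 lie between 0.56 and 0.72 and POP3 at -0.92. Without the length trend TRM8 and TRM10 go to 0.98 and 0.94. POP3 and RPP1 encode subunits of 1 enzyme and stood on opposite sides. TRZ1, the transfer RNA 3′ endonuclease gene, AIR1, of nuclear RNA surveillance, and ADF1 had still higher ratios on very few reads. TRZ1 stood on about 4 reads at 39 °C and 16 with rapamycin, a raw ratio of 7.22 with a Poisson 95% interval from 2.82 to 26.5 that covers counting error in the 39 °C column only. For AIR1, on 3 and 15 reads, the raw ratio was 7.37 (2.52 to 35.7), and for ADF1, on 2 and 11 reads, 8.42 (2.33 to 69.5). The 39 °C value of ADF1, 1.01, is the lowest of its column. That lowest value was assumed to be 1 read in each library, so the interval of ADF1 rests on this assumption.

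Genes that bring in or build nucleotides formed another group. Of 37 genes of nucleotide synthesis 5 were higher and 1, URA3 at -1.29, lower, with a median of 0.33. IMD4, an IMP dehydrogenase gene, had 286, 287, 21.4 and 57.7 normalized reads and a ratio of 1.32. PRS4, FUR1, HPT1 and SHM2 had ratios of 1.27, 1.15, 1.14 and 1.01. Of 41 nutrient permease genes 4 were higher and 0 lower, and 3 of the 4 carry nucleobases or nucleosides. FCY2 (V, 266512 to 268113), the purine and cytosine permease gene, had 448, 462, 23.7 and 80.3, a ratio of 1.65. It remained far below its 30 °C level. The uridine permease gene FUI1 (II, 138341 to 140260) had 101, 112, 9.97 and 34.2, a ratio of 1.53, and the uracil permease gene FUR4 a ratio of 1.42. PHO84, the phosphate transporter gene, had 1.27. In amino acid metabolism LEU9, an isopropylmalate synthase gene, had 143, 121, 13.1 and 48.8, a ratio of 1.69, and was the only one of 50 Gcn4 amino acid genes past 2-fold. SAM1, an S-adenosylmethionine synthetase gene, had a ratio of 1.52. Others of the 25 highest with less defined grouping were YOR342C at 1.54, YEL020C-B at 1.45 and the cytochrome b5 gene CYB5 at 1.43. YOR342C had only 3.41 normalized reads at 39 °C.

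Respiration genes had a higher median at 39 °C than at 30 °C, and a still higher one with rapamycin. Of 51 kept respiration genes 7 were higher and 0 lower, 48 had a ratio above 0 and the median was 0.75. The list's median value was 61.9 normalized reads at 30 °C, 60.6 at 30 °C with rapamycin, 108 at 39 °C and 178 at 39 °C with rapamycin. COX8 (XII, 909729 to 909965), a subunit gene of cytochrome oxidase, had 37.9, 39.2, 32.4 and 95.0 normalized reads, a ratio of 1.47. CYC1 (X, 526335 to 526664), the cytochrome c gene, had 127, 105, 77.7 and 190.0, a ratio of 1.26. NDI1 (XIII, 28266 to 29807), the internal NADH dehydrogenase gene, had 86.5, 96.1, 302 and 646, a ratio of 1.09 (counting standard error 0.078). For these genes the highest of the 4 values was the one in heat with rapamycin. ATP5, IDH1, QCR6 and COX5A had ratios of 1.14, 1.04, 1.01 and 1.01. The small import chaperone genes TIM10, TIM13 and TIM9 were the 3 higher genes among 33 of mitochondrial import, at 1.50, 1.17 and 1.06, while that list's median was 0.06. Without the length trend described below all 3 fall short of 2-fold, at 0.98, 0.68 and 0.54. MGE1, the exchange factor gene of mitochondrial Hsp70, was the only classic chaperone gene that was higher, at 1.09. MRPL20 at 1.52 was the only one of 64 mitochondrial ribosome genes past 2-fold.

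A few higher genes were themselves strongly higher in heat before rapamycin was added to the comparison. EGO4, listed as YNR034W-A, had 2.48, 1.98, 71.7 and 151 normalized reads, a ratio of 1.05. ACH1 (II, 194122 to 195702), a mitochondrial acetyl-CoA hydrolase gene, had 16.9, 25.1, 146 and 332, a ratio of 1.17. PBI2, an inhibitor gene of vacuolar proteinase B and the 1 higher gene of the Msn2/4 list, had 7.37, 11.995, 53.8 and 112, a ratio of 1.02. RPM2, the protein subunit gene of mitochondrial RNase P, had 41.0, 42.8, 126 and 263, a ratio of 1.05. In contrast to the ribosome genes, these genes were farther from their 30 °C level in heat with rapamycin than in heat alone. They were singled out after their values were seen.

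Some higher loci outside the ribosome lists are numbered next to ribosome genes. Of 29 kept loci without a RefSeq row that carry the number next to a ribosomal protein or biogenesis gene, 11 were higher, 37.9%, beside 2.58% of the 3832 kept genes not next to one. BUD28 (YLR062C), numbered next to RPL22A, had 422, 368, 82.1 and 315 normalized reads and a ratio of 1.904, while RPL22A had 1.70. YPL142C next to RPL33A had 1.51, BUD19 next to RPL39 1.38 and OPI11 next to RPL43A 1.28. As for the loci beside SSA1 and CPR6, their reads cannot be told apart from those of the ribosome genes. Among placed neighbours the shares were lower, from 1.63% of 123 convergent to 4.35% of 92 downstream neighbours. ADF1 and FYV5 (1.41) overlap each other on opposite strands and share this limit.

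**Figure D4:**
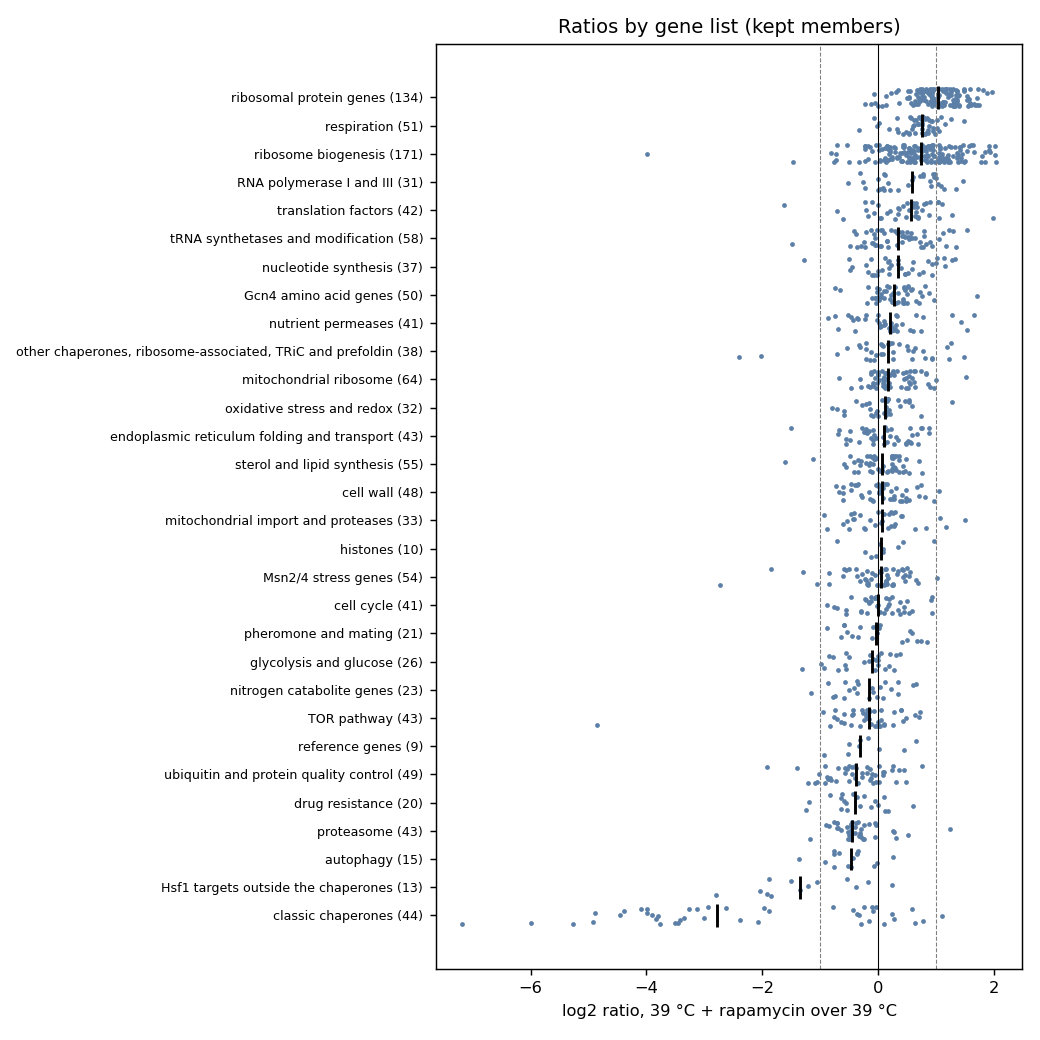
Ratio at 39 °C with rapamycin over 39 °C (log2) of every kept member of each gene list, with list medians as bars, kept members in brackets and dashed lines at 2-fold. Hsf1 targets outside the chaperones have a median of -1.36 and respiration genes one of 0.75, between -2.78 for the classic chaperones and 1.02 for ribosomal protein genes.

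Many lists held few members past 2-fold. The counts were 1 lower and 0 higher of 23 nitrogen catabolite genes (DUR3, a urea permease gene, at -1.16), 2 lower and 0 higher of 55 sterol and lipid genes (UPC2 and CHO2, the latter at -1.13), 0 lower and 1 higher of 48 cell wall genes (CWP2 at 1.04) and 0 lower and 1 higher of 32 redox genes (GRX4 at 1.27). No member of the pheromone, histone, cell cycle and reference lists, with 21, 10, 41 and 9 kept genes, passed 2-fold in either direction. Of the 105 lower genes outside the chaperones 74 were on no list, and of the 121 higher genes outside the ribosome lists 73 were on none. YAR1 and NAF1 among the 105 are on the ribosome biogenesis list, and MGE1 among the 121 is on the chaperone list. The lists were chosen with results of these data known, and their counts stand beside 2.88% lower and 5.37% higher of all kept genes.

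Gene length went with the ratio over the whole table. Among kept genes in RefSeq the median ratio was 0.48 under 500 bases, 0.22 from 500 to 1000, 0.003 from 1000 to 2000, -0.17 from 2000 to 4000 and -0.35 from 4000 bases. The share of lower genes went from 1.85% to 7.73% over these classes and that of higher genes from 12% to 1.10%. With rapamycin at 30 °C the medians of the classes lay between -0.042 and 0.011. The median length was 1602 bases for the lower genes outside the chaperones, 886.5 for the higher ones outside the ribosome genes and 1374 for all kept genes. With the running median over 301 genes of like length subtracted, 78 of the 105 and 73 of the 121 remained past 2-fold. IRA2, at 9240 bases, then had -2.87, and COX8, at 237 bases, had 0.92. Of the respiration genes named above, CYC1, ATP5, QCR6 and COX5A also went below 1, and the list median to 0.53. ECM29, SNQ2, PDR11 and CHO2 were no longer 2-fold lower. The median of the histone list went from 0.05 to -0.39 and that of the mitochondrial import list from 0.06 to -0.14.

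**Figure D5:**
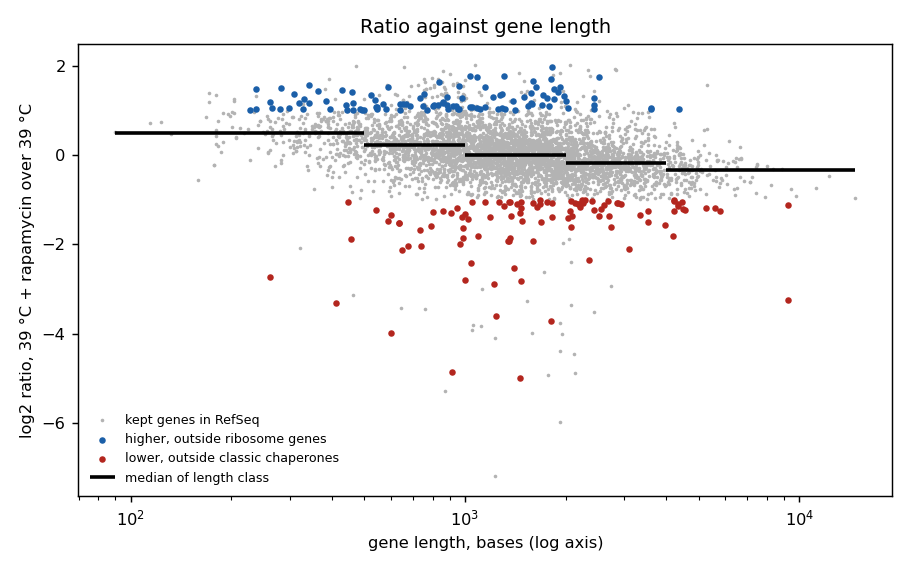
Ratio at 39 °C with rapamycin over 39 °C (log2) against RefSeq gene length (log axis); points are kept genes, red the lower genes outside the chaperone list, blue the higher genes outside the ribosome lists, and bars the median of each length class. The class medians go from 0.48 under 500 bases to -0.35 from 4000 bases.

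The estimated depth was lowest in heat with rapamycin, about 300000 and 205000 reads for the libraries averaged there, against up to 794000 elsewhere. HSF1 had 113 normalized reads at 39 °C and 99.98 with rapamycin, a ratio of -0.18, but anchoring moves the protein, so this does not check its removal. RPB3 had 32.9 and 40.8. The alpha-cell genes MF(ALPHA)1, MF(ALPHA)2 and STE3 had 453, 76.8 and 170.1 normalized reads at 30 °C, whereas the a-cell receptor gene STE2 had 3.94.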

How the data were processed

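The authors deposited 1 table of nascent RNA with a signal value, an average normalized read count, per gene and condition, per the file headers. HTSeq and genome build sacCer3 are named per the submitters' processing notes. The sources used here do not give the aligner, the strand setting, the handling of reads with several matches or the scaling. The 4 columns were matched to conditions by their header abbreviations. Of the 7 samples of the series, the 3 of Hsf1 chromatin immunoprecipitation were not analysed here.

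From these values the log2 ratio was computed with Python 3.11.15, numpy 2.4.6 and pandas 2.3.3, after adding 2.851 and keeping genes with a mean of at least 14.442. With 1 column per condition no test was run. Below 6, all values (100%) fell within 0.0055 of sums of 2 read steps per column, against 5.29% to 27.2% of evenly spaced values. Each column was therefore read as the mean of 2 libraries, which gave depths of 205000 to 794000 reads and counting errors of 11.3% to 17.1% at the median value. Other numbers of libraries were not compared. The scripts were tested on simulated data. Neighbours came from RefSeq assembly R64. Loci without a row there were placed by their systematic number.

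Members and lists were chosen with earlier results of these data known. Named were the 25 lowest ratios outside the chaperone list, the 25 highest outside the ribosome lists, the 3 widest members of lists where the text needs them, list members and chaperone neighbours past 2-fold, and HSF1, RPB3 and TOR1. Alternatives were other pseudocounts, filters and scalings, removal of a length trend and another neighbour rule.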

Additional observations from a re-analysis of the deposited data

How the results depend on the processing

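With a pseudocount of 0.5 of the median in place of 0.1, 82 genes were lower and 91 higher, of which 55 lay outside the chaperones and 29 outside the ribosome genes. With 0.01 of the median, 184 genes outside the ribosome genes were higher. Of 40 kept genes outside the list that start within 1000 bases of a chaperone gene 10 were lower, 25%, beside 18 of 73, 24.7%, by adjacency. They made up 9.52% of the 105, against 17.1% by adjacency. The distance rule leaves out loci without a RefSeq row. With equal totals 76 of the 105 and all 121 remained. With the filter at the 40th percentile all 82 and 90 that stayed in the table remained, and without a filter or with median-ratio factors all 105 and 121 did. A set of 107 genes was followed singly: the 25 lowest, the 25 highest and members past 2-fold of lists other than chaperone and ribosome genes. Other genes named above, such as the chaperone neighbours EXO84 and MTQ1, and BUD7 and NOT5 at the limit, were not followed singly. Of the 107, 44 fell short of 2-fold at the larger pseudocount. Besides those given above, the 44 included the nucleotide genes PRS4, FUR1, HPT1 and SHM2 and the permease genes FUR4 and DUR3. Also among them were PDR11, RVB1, PLP2, GRX4, PBI2, IRC25, MRPL20, IDH1, QCR6, COX5A, TIM9, TIM13, BUL1 and HUL4. Of the 25 highest genes TRZ1, AIR1, RRP1, ADF1, YOR342C, YEL020C-B and FYV5 fell short there as well. RRP1 went to 0.78 and YOR342C to 0.75. With equal totals 4 of the 107 fell short, UBI4, BUL1, HUL4 and SPI1. Without the length trend 27 of the 107 did, among them FUR1, HPT1, GCN3, SUI1, PLP2, IRC25, PBI2, CWP2 and CYB5. The 107 were chosen for ratios past 2-fold, so a change of sign was unlikely from the start. None of them changed sign under these settings or under removal of the length trend, which was chosen after seeing the data. Medians close to 0 did: equal totals turned those of glycolysis, cell cycle and pheromone genes above 0, the stricter filter those of cell cycle, pheromone and mitochondrial import genes to the other side, and removal of the length trend these 3 and those of Msn2/4, redox, histone and mitochondrial ribosome genes. The causes were not tested. Heat shock elements in promoters were not searched, because no promoter sequence was used here. No paired analysis was possible because each condition has a single column. Depth was lowest at 39 °C with rapamycin, which limits low values most.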
